A study of Mus musculus with 12 samples.

Results

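The 7 genes described here, Dppa2, Dppa3, Dppa4, Dppa5a, Ooep, Tcl1 and Fbxo15, are active in mouse embryonic stem cells (ESCs) and are shared with the oocyte, the early embryo or the germ line. They were taken by name, together with every array probe annotated to them. This gave 14 of the 45281 probes on the array. Of these, 12 passed the filter on dim probes, and each gene kept at least 1 probe. The brightest kept probe stood for its gene, so the 7 genes were read among 8487 named genes and 11089 tested features.

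RNA levels were read from 12 BeadChip arrays (Illumina MouseWG-6 v2), 3 in each of 4 groups. The ESC groups came from E14Tg2a Esrrb-2a-GFPd-IBIH cells, in which a destabilised GFP follows Esrrb at both alleles. These cells were held in medium with FCS and LIF, plated at 3000 cells per cm2 and, after 3 days, SSEA-1 positive cells were sorted into GFP high (EsrrbHi), GFP medium (EsrrbMed) and GFP negative (EsrrbNeg) fractions. The fourth group was EpiSC, epiblast stem cells of the TNG Esrrb-2a-TdTomato line, kept in N2B27 with activin and FGF, for which the labels give no sort. This line carries a GFP cassette knocked in to 1 Nanog allele, and the study describes TNG cells as Nanog+/-. Per the study these EpiSC were derived from late bud stage embryos. Every comparison with EpiSC is thus also a comparison of line, origin and stage, Esrrb reporter, Nanog genotype, medium and sort, and these cannot be told apart. Chip 1 held replicates 1 and 2 of the ESC groups. Chip 2 held replicate 3 of the ESC groups and the 3 EpiSC arrays. Per the study, the replicates of the sorted ESC fractions were independent experiments. The sources used here do not say this of the EpiSC arrays, so p-values with EpiSC speak for these arrays only and not for EpiSC cultures at large. All groups share 1 estimate of the spread, so p-values among the ESC fractions also hold the spread of the EpiSC arrays.

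The names of these genes record where they were found. The Dppa genes ("developmental pluripotency associated") were collected for expression like that of Oct4 in pluripotent cells, and several of them return in primordial germ cells. Dppa2 and Dppa4 are chromatin proteins with a SAP domain that bind DNA together and switch on genes of the cleavage-stage embryo. Dppa3, also called Stella or PGC7, is a maternal protein that protects the maternal genome of the zygote from loss of DNA methylation and, in ESCs, restrains the methylation cofactor UHRF1. Dppa5a and Ooep are neighbouring genes for small proteins with a KH fold, and OOEP belongs to the subcortical maternal complex that the cleaving embryo needs. TCL1 binds and activates AKT kinases. FBXO15 is an F-box protein, the part of an SCF ubiquitin ligase that selects substrates, and its gene is a classical target of Oct4 and Sox2.

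Where the sequence around a start site could be read, it was checked for short binding motifs, because the cells were sorted on the gene of an estrogen-related receptor (Esrrb). RefSeq promoter records on build GRCm38.p6 covered 2 of the 7 genes. The 250 bases before the start site are printed 5′ to 3′ on the strand of the gene, with motif matches in capitals. The Ooep window is chr9:78378589-78378838 and the Tcl1 window is chr12:105222738-105222987, both on the minus strand.
Ooep: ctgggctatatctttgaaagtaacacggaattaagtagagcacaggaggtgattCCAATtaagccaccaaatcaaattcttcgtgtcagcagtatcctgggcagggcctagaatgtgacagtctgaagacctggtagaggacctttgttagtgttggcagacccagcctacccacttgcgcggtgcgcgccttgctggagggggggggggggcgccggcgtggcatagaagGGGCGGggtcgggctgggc
Tcl1: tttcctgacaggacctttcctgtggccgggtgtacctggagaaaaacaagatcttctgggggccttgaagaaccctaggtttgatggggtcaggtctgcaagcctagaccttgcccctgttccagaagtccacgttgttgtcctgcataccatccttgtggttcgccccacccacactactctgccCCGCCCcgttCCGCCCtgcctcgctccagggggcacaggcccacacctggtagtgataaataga
In Ooep the capitals mark 1 CCAAT box (CCAAT), 196 to 192 bases before the start, and 1 GC box (GGGCGG), 19 to 14 bases before it. In Tcl1 they mark 2 GC boxes read on the opposite strand (CCGCCC), 64 to 59 and 54 to 49 bases before the start. Both strands were searched in all 32851 promoter windows of this length. A GC box was present in 32.7% of them and a CCAAT box in 33.8%. Neither window held the estrogen-related receptor element in its long form (TCAAGGTCA, in 0.387% of windows), its core (AAGGTCA, which lies inside the long form, in 4.08%), the octamer ATGCAAAT (1.6%) or TATAAA (12.4%). The GC content was 57.2% for Ooep and 57.6% for Tcl1, against a median of 52.4%.

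Values below are log2 intensities after background correction, with an offset of 16 and quantile normalization, unless raw intensity is named. A probe was detected where its detection p was at most 0.01. A gene was called where limma's moderated test gave a Benjamini-Hochberg adjusted p of at most 0.05 over the 11089 features and the change was at least 1.5-fold (0.585 on the log2 scale). The offset pulls dim values towards each other, so folds towards dim groups are understated. Fold changes come from a fit with a term for chip and can differ slightly from the difference of the group means.

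Esrrb, the gene sorted on and therefore no result, stood at 11.95 ± 0.2 (SD, n = 3) in EsrrbHi, and 11.27 ± 0.08 in EsrrbMed, then 5.64 ± 0.15 in EsrrbNeg. Its EpiSC mean was 6.33 ± 0.29. Pou5f1, the Oct4 gene, was detected on every array, with group means from 10.83 to 11.29. Fgf5, a marker of primed epiblast, was undetected in EsrrbHi and EsrrbMed and reached 7.64 ± 0.98 in EsrrbNeg and 10.26 ± 0.11 in EpiSC. Replicate arrays correlated at 0.987 to 0.996, the median raw intensity of an array lay between 82.9 and 97.9, and 13333 to 15393 probes were detected on each. The number of arrays, 3 a group, limits the precision of every value.

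All 7 genes stood lower in EpiSC than in every ESC group, and they differed in how far EsrrbNeg stood below EsrrbHi. EpiSC is a separate line, so the words fall and step name differences between groups, not a course that the sorted cells followed. Tcl1, Fbxo15, Dppa3 and Ooep fell by 2.82-fold to 15.5-fold between EsrrbHi and EsrrbNeg, and Dppa2 fell by 1.59-fold. Dppa4 and Dppa5a differed by 1.32-fold and 1.16-fold between the same fractions and were not called, while EpiSC stood 5.08-fold and 13.1-fold below EsrrbNeg for them. The Dppa5a probes were near the top of the intensity scale on the ESC arrays, where differences are compressed, so their near-level values there do not show that Dppa5a was unchanged, and the fall to EpiSC may be understated. Between EsrrbHi and EsrrbMed only Tcl1 of the 7 was called. In a bulk sample fewer cells with a transcript and less transcript per cell cannot be told apart.

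**Figure D1:**
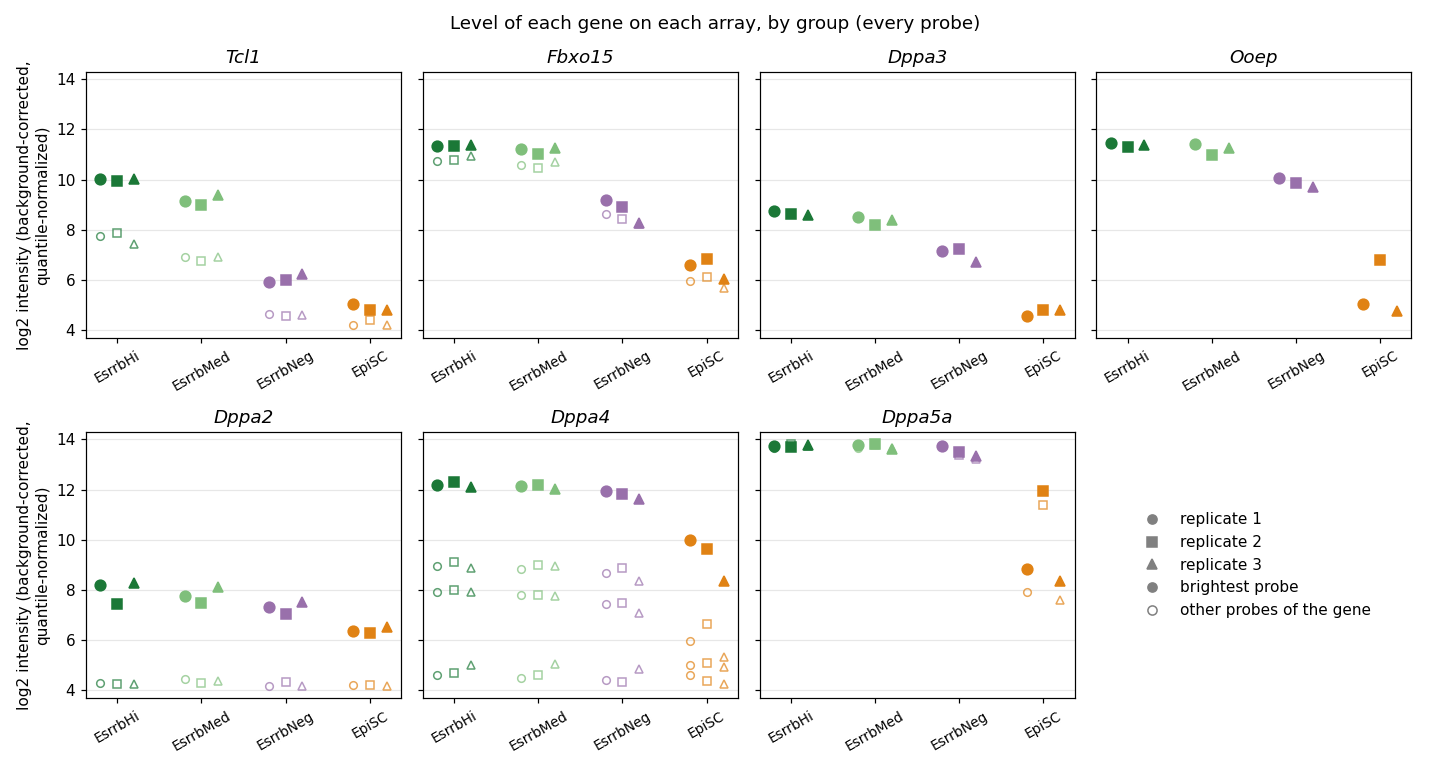
Log2 intensity (y axis) of every probe of the 7 genes on each of the 12 arrays, by group (x axis); filled symbols are the brightest probe, open symbols the other probes, and the symbol shape gives the replicate. Tcl1, Fbxo15, Dppa3 and Ooep step down at EsrrbNeg, whereas the brightest Dppa5a probe stays between 13.34 and 13.8 on all 9 ESC arrays and spreads from 8.36 to 11.95 in EpiSC.

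In counts, 1 of the 7 genes was called lower in EsrrbMed than in EsrrbHi, against 0.703% of all features called lower there and 0.478% called higher. From EsrrbMed to EsrrbNeg 4 of 7 were called lower (all features: 6.17% lower, 5.73% higher). From EsrrbHi to EsrrbNeg 5 of 7 were called lower, where 9.06% of all features were called lower and 9.06% higher. EpiSC was lower than EsrrbNeg for 7 of 7 (8.96% lower and 12.1% higher among all features) and lower than EsrrbHi for 7 of 7 (14.9% lower, 18.5% higher). In limma none of the 7 was called higher in any comparison, and none was higher at an unadjusted p under 0.05. The median log2 change of the 7 was -0.18, -1.31, -1.5, -2.21 and -3.93 in these comparisons in turn, and that of all features lay between -0.01 and 0.03. The comparisons share arrays, so these counts are not independent of each other. Within chip 1 and chip 2 alone, the changes from EsrrbHi to EsrrbNeg were -4.02 and -3.81 for Tcl1, -1.51 and -1.86 for Dppa3, -1.4 and -1.7 for Ooep, -0.36 and -0.49 for Dppa4 and -0.11 and -0.43 for Dppa5a.

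**Figure D2:**
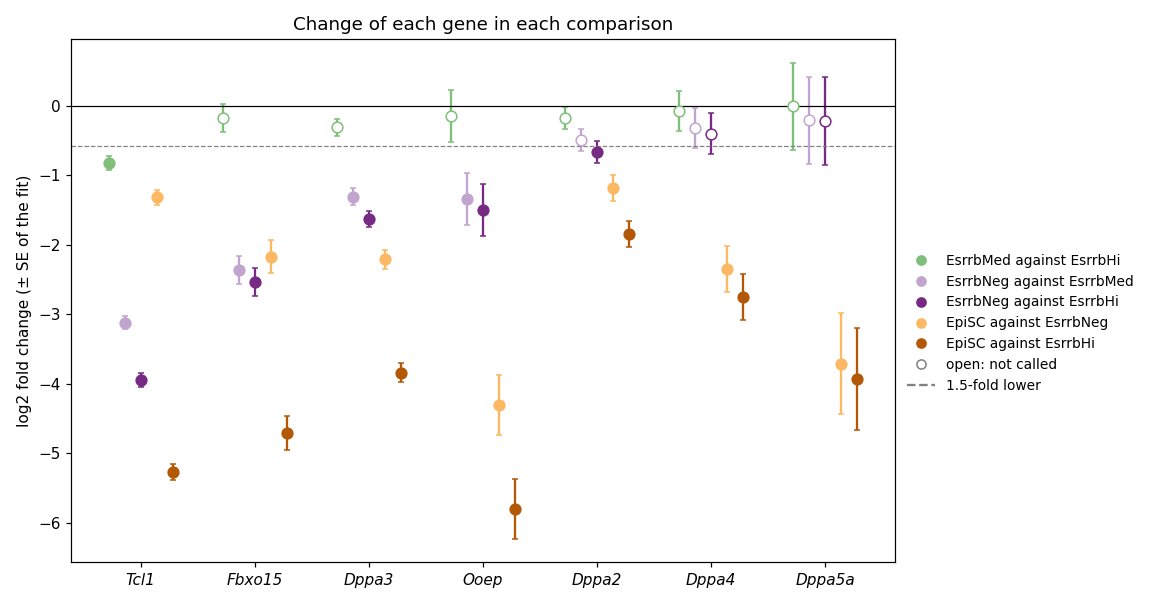
Log2 fold change with the standard error of the limma fit (y axis) for each gene (x axis) in the 5 comparisons; filled points were called, open points were not, and the dashed line is a 1.5-fold fall. Dppa4 and Dppa5a have open points in every comparison among ESC fractions and filled points below -2 in both comparisons with EpiSC.

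Tcl1 had the largest fall of the 7 genes within the ESC fractions. Its brightest probe read 10.04, 9.94 and 10.04 in EsrrbHi, 9.16, 8.99 and 9.38 in EsrrbMed and 5.93, 6 and 6.23 in EsrrbNeg. The EpiSC arrays gave 5.03, 4.81 and 4.78. The 4 groups did not overlap, and the raw intensity went from 784 to 1400 in EsrrbHi to 114 to 170 in EsrrbNeg. EsrrbMed stood 1.78-fold below EsrrbHi (log2 -0.83, SE 0.1, adjusted p = 0.00244), the only call among the 7 genes at this step. EsrrbNeg stood 15.5-fold below EsrrbHi (-3.95, SE 0.1, adjusted p = 1.64e-11), a fall that ranked 4 among all features in that fit. With quantile normalization alone this was -2.97, and in the deposited log2 table -3.01. The call at EsrrbMed was made on chip 1 alone (-0.92) and not on chip 2 alone (-0.66, adjusted p = 0.903), where the ESC groups have 1 array each, nor with median scaling (-0.79).

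EpiSC read a further 2.5-fold below EsrrbNeg for Tcl1 (-1.32, SE 0.11, adjusted p = 4.38e-06), close to background, with raw intensities of 93.5 to 102. This last step dropped below the 1.5-fold threshold with quantile normalization alone (-0.55) and in the deposited log2 table (-0.48), and its adjusted p rose to 0.12 with median scaling (-0.97). A second Tcl1 probe gave 7.75, 7.88 and 7.43 in EsrrbHi and 6.9, 6.74 and 6.93 in EsrrbMed. It was detected on 1 of 3 EsrrbNeg arrays and on no EpiSC array, and its values there, 4.56 to 4.62 and 4.19 to 4.4, gave no call between EpiSC and EsrrbNeg (-0.27, SE 0.13, adjusted p = 0.108). By this probe EsrrbMed was again 1.78-fold below EsrrbHi (adjusted p = 0.00373), and EpiSC was at least 8.1-fold lower than EsrrbHi, set against the lowest detected signal of each EpiSC array. Of its family, 3 Tcl1b genes with probes (Tcl1b2, Tcl1b3 and Tcl1b4) and the kinase genes Akt1 and Akt2 did not pass the filter and were not tested.

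Fbxo15 was level in the reporter-positive fractions and fell in EsrrbNeg. It read 11.33, 11.32 and 11.36 in EsrrbHi, 11.2, 11.02 and 11.25 in EsrrbMed and 9.19, 8.91 and 8.28 in EsrrbNeg. The EpiSC arrays gave 6.61, 6.84 and 6.05. EsrrbMed lay just below EsrrbHi on every array (-0.18, SE 0.2, adjusted p = 0.753). EsrrbNeg was 5.13-fold below EsrrbMed (-2.36, SE 0.2, adjusted p = 2.46e-06) and 5.81-fold below EsrrbHi (-2.54, adjusted p = 5.51e-07). EpiSC was 4.49-fold below EsrrbNeg (-2.17, SE 0.24, adjusted p = 2.39e-05), and the change was -1.54 with quantile normalization alone. The raw intensity was 125 to 164 in EpiSC and 2040 to 3340 in EsrrbHi. Replicate 3 was the lowest of the EsrrbNeg arrays, and the log2 change from EsrrbHi was -3.07 on chip 2 and -2.27 on chip 1. A second Fbxo15 probe gave the same order, 10.82, 10.56, 8.43 and 5.92 in the group means, with falls of 5.26-fold from EsrrbHi to EsrrbNeg and 5.7-fold on to EpiSC.

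The core of the SCF ligase, into which F-box proteins fit, was read beside Fbxo15. Of its 6 listed genes 5 were tested, and limma called none of them among the ESC fractions. The median change from EsrrbHi to EsrrbNeg was -0.09, and Rbx1, the RING subunit and the brightest of the list, changed by 0.04 (SE 0.08, adjusted p = 0.759). In EpiSC against EsrrbNeg 1 of the 5 was called higher, Btrc, itself an F-box gene (0.76, SE 0.12, adjusted p = 0.000219).

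Dppa3 fell at EsrrbNeg and again in EpiSC. It read 8.75, 8.64 and 8.59 in EsrrbHi, 8.49, 8.17 and 8.38 in EsrrbMed and 7.16, 7.22 and 6.73 in EsrrbNeg. The EpiSC arrays gave 4.56, 4.78 and 4.79. No neighbouring groups overlapped, yet the difference between EsrrbMed and EsrrbHi was small (-0.31, SE 0.12, adjusted p = 0.202). By limma on the deposited log2 table it was -0.26 (adjusted p = 0.0487), below the fold threshold. In the study's qRT-PCR panel of markers, only Stella (Dppa3) and Nanog differed between these fractions. Esrrb mRNA, shown apart from that panel, followed the reporter. EsrrbNeg was 3.09-fold below EsrrbHi (-1.63, SE 0.12, adjusted p = 2.9e-07) and 2.48-fold below EsrrbMed. EpiSC was 4.64-fold below EsrrbNeg (-2.21, SE 0.14, adjusted p = 4.61e-07). Its probe was at the edge of detection there, with raw intensities of 92.6 to 94.1 and a detection p of 0.0235 on replicate 1. The size of this last step depended on how background was treated (-0.97 with quantile normalization alone, -1.37 with an offset of 50), and the call did not.

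The list of DPPA3 partners and DNA methylation genes was read beside it. Uhrf1 changed by -0.02 (SE 0.08, adjusted p = 0.884) from EsrrbHi to EsrrbNeg. Dnmt3b, a de novo methyltransferase, rose by 0.92 (SE 0.09, adjusted p = 3.34e-06), and Tet1, which oxidises methylcytosine, fell by 0.99 (SE 0.19, adjusted p = 0.000924). Of the 6 tested genes in this list, 1 was called lower and 1 higher at this step, with a median of -0.23. In EpiSC against EsrrbNeg 2 were called lower, Tet1 (-1.58) and the cofactor gene Dnmt3l (-2.23), and the median was -0.49.

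Dppa2 and Dppa4, the paired chromatin genes, lie next to each other on chromosome 16. Dppa2 read 8.19, 7.42 and 8.26 in EsrrbHi, 7.76, 7.47 and 8.11 in EsrrbMed and 7.31, 7.06 and 7.51 in EsrrbNeg. The EpiSC arrays gave 6.37, 6.28 and 6.52. The 3 ESC groups overlapped, since replicate 2 of EsrrbHi was as low as EsrrbNeg replicate 3. Within each replicate number EsrrbNeg was the lowest of the 3 fractions. EsrrbNeg was 1.59-fold below EsrrbHi (-0.67, SE 0.16, adjusted p = 0.00486), just past the fold threshold. This call was lost without EsrrbHi replicate 1 (-0.46, adjusted p = 0.0251), in the deposited log2 table (-0.5), with quantile normalization alone (-0.49), with an offset of 50 (-0.57), with median scaling (-0.64) and on either chip alone (-0.62 and -0.75). EpiSC lay below all ESC arrays, 2.27-fold below EsrrbNeg (-1.18, SE 0.19, adjusted p = 0.000286), a call lost with median scaling (-0.89, adjusted p = 0.237). The deposited table gave -0.59. The other Dppa2 probe was undetected on all 12 arrays, at raw intensities of 82 to 103.

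Dppa4 was bright and nearly level across the ESC fractions. It read 12.18, 12.3 and 12.11 in EsrrbHi, 12.16, 12.17 and 12.01 in EsrrbMed and 11.94, 11.82 and 11.63 in EsrrbNeg. All 3 EsrrbNeg arrays lay below all other ESC arrays, by a small margin (-0.4 against EsrrbHi, SE 0.29, adjusted p = 0.295). That standard error holds the spread of the EpiSC arrays, since all groups share 1 estimate. In the fit of the 9 ESC arrays with a replicate block the same difference had an SE of 0.08 and an adjusted p of 0.00302, and it stayed below the fold threshold.

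In EpiSC Dppa4 read 10.01, 9.64 and 8.35, all below the ESC arrays. The range of these arrays was 1.66, where it was 0.24 for Dppa2 and 0.23 for Dppa3. EpiSC was 5.08-fold below EsrrbNeg (-2.35, SE 0.33, adjusted p = 0.000139). Without EpiSC replicate 3, the lowest, the change was -1.85, and on chip 2 alone, where EsrrbNeg has 1 array, it was -2.3 with an adjusted p of 0.0587. Both further kept probes fell 5.82-fold and 4.67-fold at this step. The dimmer of them was called from EsrrbHi to EsrrbNeg (-0.6, SE 0.09, adjusted p = 0.000151), just past the fold threshold, and the other was not (-0.34, adjusted p = 0.271), so the Dppa4 probes disagree on that call. The last Dppa4 probe was detected on 4 of 12 arrays and was not kept.

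Dppa5a and Ooep lie next to each other on chromosome 9. Dppa5a, an RNA-binding protein gene, read 13.75, 13.7 and 13.77 in EsrrbHi, 13.77, 13.8 and 13.6 in EsrrbMed and 13.72, 13.5 and 13.34 in EsrrbNeg. The ESC groups overlapped, and EsrrbNeg differed from EsrrbHi by -0.22 (SE 0.63, adjusted p = 0.807). In the fit of the ESC arrays with a replicate block the SE was 0.1 and the adjusted p 0.0889. The raw intensities of 10200 to 14900 were among the brightest on each array, against a maximum of 14475 to 18155 on the ESC arrays.

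In EpiSC the Dppa5a arrays disagreed. They read 8.85, 11.95 and 8.36, that is raw intensities of 496, 3300 and 343. Replicate 2 lay between the other EpiSC arrays and the ESC arrays, and all 3 lay below every ESC array. EpiSC was 13.1-fold below EsrrbNeg (-3.71, SE 0.73, adjusted p = 0.00123). Without EpiSC replicate 2 the change was -4.82 (SE 0.16, adjusted p = 3.7e-09), and without replicate 3 it was -3.03. On chip 2 alone, with 1 EsrrbNeg array, it was -3.62 with an adjusted p of 0.12. A second Dppa5a probe read 7.92, 11.4 and 7.6 in EpiSC, with replicate 2 again the highest, and 13.23 to 13.81 in the ESC groups. It fell 21.1-fold from EsrrbNeg to EpiSC (adjusted p = 0.000585).

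Ooep fell at EsrrbNeg and further in EpiSC. It read 11.45, 11.28 and 11.39 in EsrrbHi, 11.41, 10.97 and 11.27 in EsrrbMed and 10.07, 9.85 and 9.7 in EsrrbNeg. The EpiSC arrays gave 5.05, 6.78 and 4.76. EsrrbHi and EsrrbMed overlapped (-0.15, SE 0.37, adjusted p = 0.905), and the other groups did not. EsrrbNeg was 2.82-fold below EsrrbHi (-1.5, SE 0.37, adjusted p = 0.00523) and 2.54-fold below EsrrbMed (-1.34, adjusted p = 0.0147). These standard errors hold the spread of the EpiSC arrays. In the fit of the 9 ESC arrays with a replicate block the same changes had an SE of 0.1, with adjusted p = 1.14e-06 and 5.25e-06, and without EpiSC replicate 2 the SE was 0.13. In the fit of all groups the call against EsrrbMed was lost without EsrrbMed replicate 1 (adjusted p = 0.0566), EsrrbMed replicate 3 (0.0638) or EsrrbNeg replicate 3 (0.0651), with median scaling (0.0593) and without the filter (0.092), at changes of -1.24 to -1.43. On chip 2 alone, where each ESC group has 1 array and the SE of 0.92 comes only from the EpiSC arrays, the changes were -1.7 and -1.57 and were not called, and on chip 1 they were -1.4 and -1.23 and were called.

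The fall of Ooep from EsrrbNeg to EpiSC was 19.8-fold (-4.31, SE 0.43, adjusted p = 1.2e-05), and it ranked 1 among all falls in that fit and in EpiSC against EsrrbHi (55.9-fold, -5.8, adjusted p = 1.38e-07). EpiSC raw intensities were 102, 159 and 93.7. Without EpiSC replicate 2 the changes were -4.93 and -6.43. With quantile normalization alone they were -2.97 and -4.42, and in the deposited log2 table -3.05 and -4.49.

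EpiSC replicate 2 was set against the mean of the other EpiSC arrays for every feature. Dppa5a stood highest of all 11089 features, 3.34 above (10.1-fold), and Ooep ranked 4, 1.87 above (3.66-fold). Ooep was near background on these arrays, with raw intensities of 102, 159 and 93.7. With quantile normalization alone it read 6.68, 7.46 and 6.59, so the size of its difference depended on how background was treated. Fbxo15 and Dppa4 were 0.51 and 0.47 above, Dppa3 was 0.1 above, Tcl1 was -0.1 and Dppa2 -0.16. By the brightest probes, the neighbours on chromosome 9 were thus the members that stood out on this array. The other kept Dppa4 probes read 5.97, 6.65 and 5.33, and 5.01, 5.08 and 4.93, on the EpiSC arrays. The Dppa4 probes thus disagree on how far replicate 2 stood out. Between them ranked Klf2, a naive pluripotency factor, at 7.34, 9.42 and 6.65, and Rps4l, a gene related to ribosomal protein S4, at 7.06, 8.74 and 6.43. Klf2 was named after its values were seen. Of all features, 29 were at least 2-fold above and 4 at least 2-fold below the other EpiSC arrays on replicate 2, against 15 and 13 on replicate 1 and 9 and 15 on replicate 3. Immediate-early genes, also picked after their values were seen, were among the 29, with Fos at 7.06, 8.77 and 6.92 and Egr3 at 5.94, 7.66 and 5.66. A single array allows no test, and the cause of its difference was not tested.

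**Figure D3:**
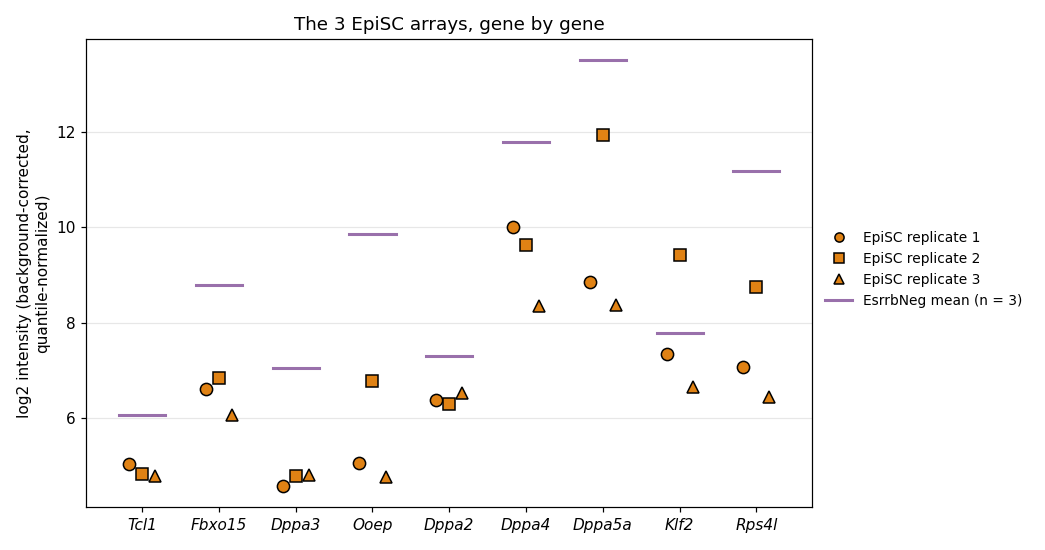
Log2 intensity of the 7 genes and of Klf2 and Rps4l (x axis) on the 3 EpiSC arrays (symbols), with a bar at the EsrrbNeg mean. Dppa5a (11.95) and Ooep (6.78) are highest on replicate 2, while Tcl1, Dppa2 and Dppa3 differ by at most 0.25 between the arrays.

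Other oocyte genes were mostly too dim to test. Of 28 listed genes of the subcortical maternal complex and the oocyte, 24 had a probe, 19 of these did not pass the filter and 5 were tested. Of the 5, Ooep included, 4 were called lower in EsrrbNeg than in EsrrbHi, with a median of -1.44. Khdc3 (also called Filia), a partner of OOEP in the complex, read 7.59, 7.66 and 7.74 in EsrrbHi, 7.02, 6.65 and 7.23 in EsrrbMed and 4.72, 4.49 and 5.05 in EsrrbNeg. The EpiSC arrays gave 4.36, 4.77 and 4.36. EsrrbNeg differed from EsrrbHi by -2.91 (SE 0.13, adjusted p = 4.87e-09) and from EsrrbMed by -2.21 (SE 0.13, adjusted p = 1.36e-07). Zp3, a zona pellucida gene, fell by 1.44 on the log2 scale and Tle6, a further gene of the complex, by 1.41. Nlrp14 changed by -0.14 (adjusted p = 0.343).

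From EsrrbNeg to EpiSC only Ooep of these 5 was called. Khdc3 changed by -0.47, Zp3 by -0.43, Nlrp14 by -0.58 and Tle6 by 0.45, all below the fold threshold. In EsrrbNeg, Khdc3 (4.49 to 5.05) and Zp3 (4.75 to 5.06) were already near the lowest detected values of those arrays (4.566 to 4.685). This left them little room for a further fall. The KHDC1 and DPPA5 family list had 3 tested genes, Dppa5a, Ooep and Khdc3, and its 3 Khdc1 genes did not pass the filter. None of the 13 genes of the 2-cell-like list with a probe passed it, so this group of genes, some of them known targets of DPPA2 and DPPA4, was not tested.

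The ESC-associated transcripts, a list that holds Dppa2, Dppa4, Dppa5a and Fbxo15, had 14 tested genes. Of the 10 that are not members, 6 were called lower and none higher from EsrrbHi to EsrrbNeg in limma, with a median of -1.11, against 0.03 for all features. They included Zfp42 (Rex1, a marker of naive cells, -3.6), Khdc3, Nanog (-2.6) and Sox15 (-1.42). From EsrrbNeg to EpiSC 5 of the 10 were called lower and 1 higher, with a median of -0.55. Khdc3 (4.49 to 5.05) and Sox15 (4.25 to 4.35) were already near background in EsrrbNeg. The 8 tested primordial germ cell genes gave 7 lower at the first step (median -1.3), among them Rhox9 (-2.08), Kit (-2.05), Tfap2c (-1.92) and Rhox6 (-1.56), and 2 lower and 1 higher at the second (median -0.16). Of these, Prdm14 (4.14 to 4.25), Nanos3 (4.26 to 4.34) and Rhox6 (4.29 to 4.8) were already near background in EsrrbNeg. This left them little room for a second fall.

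**Figure D4:**
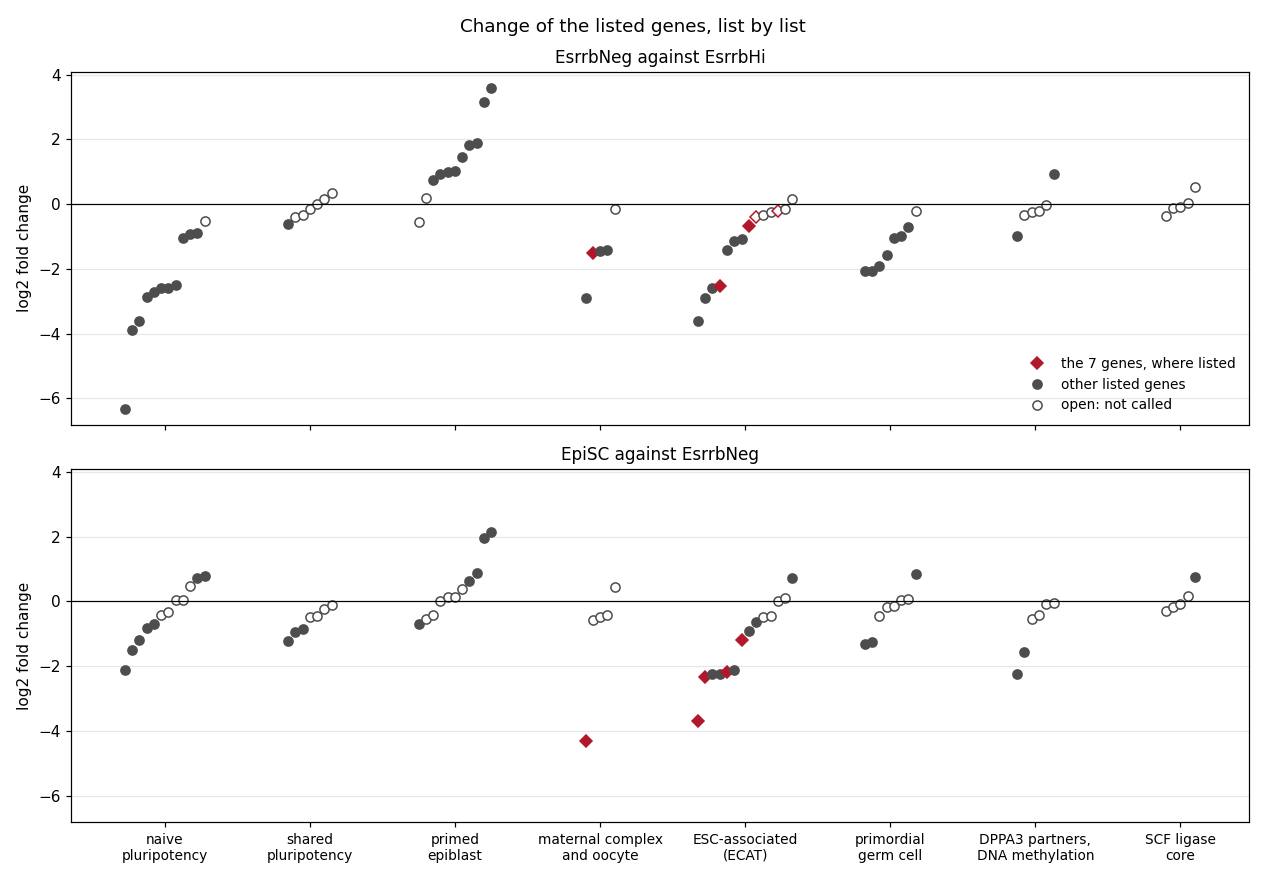
Log2 fold change (y axis) of the tested genes of 8 lists (x axis), filled where called, with listed members as red diamonds, in EsrrbNeg against EsrrbHi and in EpiSC against EsrrbNeg. In the second comparison the 5 members shown lie at -1.18 or lower. Of the 12 naive pluripotency genes, 5 were called lower (Zfp42 furthest, -2.12) and 2 higher (Esrrb, the gene sorted on, and Nanog), with a median of -0.37. Some naive genes, such as Prdm14 (4.14 to 4.25), were near background in EsrrbNeg, which left little room to fall.

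The naive, shared and primed pluripotency lists give the setting. Of 12 naive genes 11 were called lower in EsrrbNeg than in EsrrbHi (median -2.59), led after Esrrb by Tfcp2l1 (-3.89), Zfp42 and Klf4 (-2.87). These counts and the median include Esrrb, which was sorted on and is no result. In EpiSC against EsrrbNeg 5 of the 12 were called lower and 2 higher, Esrrb (0.79) and Nanog (0.72). EsrrbNeg was sorted for absence of the Esrrb reporter, and for Nanog the EpiSC line differs in genotype, so these 2 say little about the list. Some of the 12, such as Prdm14 (4.14 to 4.25) and Tbx3 (4.58 to 4.91), were already near background in EsrrbNeg. Of 7 shared genes 1 was called lower at the first step, Sox2 (-0.61), and 3 at the second (median -0.47). Of 11 primed genes 9 were called higher at the first step (median 1.03), led by Pou3f1 (3.59), Fgf5 (3.17), Sall2 (1.9) and Sox11 (1.83), and 4 higher and 1 lower at the second.

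Of the genes beside the members on their chromosomes, 8 that are not members were tested. From EsrrbHi to EsrrbNeg 1 was called lower, Nanog, which lies next to Dppa3 on chromosome 6, and 2 were called higher. These were Apobec1 (0.73), also near Dppa3, and Timm21 (1.46), whose annotated span overlaps that of Fbxo15. Timm21 read 7.45 to 7.55 in EsrrbHi and 8.88 to 9.07 in EsrrbNeg, the opposite direction to Fbxo15. Nanog and Dppa3 moved in opposite directions from EsrrbNeg to EpiSC, at 0.72 (SE 0.19, adjusted p = 0.0085) and -2.21. The EpiSC line has the GFP cassette in 1 Nanog allele, so for Nanog this is also a comparison of genotype.

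Some genes had profiles close to those of the members over the 12 arrays, given by Pearson's r as a description, since all points share arrays and groups. Tcl1 was closest to Plekha4 (0.996), Tfcp2l1 (0.996) and Myl4 (0.994). Fbxo15 was closest to Csrp2 (0.994), Zfp42 (0.993) and Aire (0.993), and Dppa3 to Tns3 (0.996), Bcl3 (0.995) and Krt17 (0.992). For Ooep these were Ifitm1 (0.991), Angptl4 (0.99) and Wwc1 (0.989). Dppa4 was closest to Rbmxl2 (0.986), Dnmt3l (0.984) and Thoc6 (0.981), genes that were also lowest on EpiSC replicate 3. Dppa5a was closest to Rps4l (0.984), Asxl1 (0.969) and Topors (0.962), all highest among the EpiSC arrays on replicate 2. Dppa2 was closest to Sgms1 (0.952), D11Wsu47e (0.952) and Pim3 (0.947).

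Markers of other cell types were read beside these results. Of 11 fibroblast genes 5 were tested, and Col1a2, Col3a1, Lum, Postn and Tagln did not pass the filter. The summed linear level of the 5 was 275.7 to 587.5 on the ESC arrays and 3735, 1596 and 1409 on the EpiSC arrays. The brightest of the 5 in EpiSC were Acta2 (11.53, 9.78 and 9.62) and Vim (9.28, 9.35 and 9.14). Thy1, Dcn and Col1a1 lay between 4.97 and 6.57 there. All 5 were called higher in EpiSC than in EsrrbHi and 3 higher than in EsrrbNeg, and Thy1 (0.93) and Dcn (0.76) were called higher in EsrrbNeg than in EsrrbHi. Of 8 primitive endoderm genes 2 were tested, Dab2 (1.63) and Lama1 (-2.87) from EsrrbHi to EsrrbNeg, and Gata6, Gata4, Sox17, Sox7, Pdgfra and Foxa2 did not pass the filter. The part of other cell types in the falls of the 7 genes was not tested.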

How the data were processed

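RNA (100 ng) from 4 groups of 3 samples was labelled and hybridised to Illumina arrays. Per the labels and the study's methods the authors used beadarray, quantile normalization, ComBat and limma. The version of beadarray was not given in the sources used here. The authors deposited non-normalized probe intensity values with a detection p-value for each probe and array, and a table of normalized log2 values for 38563 probes, which was an alternative only. In that deposited log2 table the EpiSC columns kept the rank order of the intensities (Spearman 1) and the ESC columns did not (0.978 to 0.996). No column of per-sample values went unmapped.

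Intensities were corrected and quantile normalized with neqc (limma 3.58.1, R 4.3.3; offset 16, log2). The filter kept 14834 of 45281 probes, those whose detection p was 0.01 or less on every array of some group, and the brightest stood for its gene. Of the probes, 32093 had 1 gene symbol, 16 several and 13172 none. A limma fit with group and chip over 12 arrays (7 residual and 6.08 prior degrees of freedom) gave 5 comparisons. The number of arrays limits the precision, and probe sequences were not used here, so cross-hybridisation was not tested. The fit was tested on simulated data. Figures were drawn with Python 3.11.15 and matplotlib 3.10.9.

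The members and lists were chosen with earlier results of these data known. Named genes were the members, for each the 3 genes with the highest correlation, and from each list up to 4 called genes by size of change from EsrrbHi to EsrrbNeg, or the brightest where none was called. Replicate numbers were checked for pairing. Deviations from group means correlated at 0.238 to 0.555 in all 9 same-numbered ESC pairs and at -0.462 to 0.227 in ESC pairs of different number. Same-numbered ESC and EpiSC arrays gave -0.052 to 0.058, so the numbers pair the ESC arrays only. Of the ESC replicates only replicate 3 was on chip 2, so chip and pairing overlap there. The main fit had no replicate term. The alternatives were median scaling, no background correction, an offset of 50, no filter, a detection limit of 0.05, the deposited log2 table, no chip term, every kept probe, replicate blocks, each chip alone and leaving out each array.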

Additional observations from a re-analysis of the deposited data

How the results depend on the processing

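Of 392 values recomputed under other processing, 372 kept their direction and call, 19 kept the direction and lost the call and 1 changed sign. Of 420 values with 1 array left out, these numbers were 413, 4 and 3. Both totals hold values that could hardly change, so they overstate how firmly the results were tested. Some values had no call to lose, and some fits left out an array of neither compared group or changed only the filter. The sign changes were all in EsrrbMed against EsrrbHi, for changes that were not called: Dppa2 ranged from -0.39 to 0.02 with 1 array left out (0.02 without EsrrbHi replicate 1), and Dppa5a from -0.06 to 0.08 (0.08 without EsrrbHi replicate 3, 0.01 without EsrrbMed replicate 3) and was 0.06 on chip 1 alone. The cause was not tested. The number of the 7 genes called in EsrrbMed against EsrrbHi was 0 with median scaling and 0 on chip 2 alone, by limma, with 1 gene at an unadjusted p under 0.05 in each. In EsrrbNeg against EsrrbMed it was 3 of the main 4 with median scaling, without the filter and on chip 2 alone. In EsrrbNeg against EsrrbHi it was 3 on chip 2 alone, and 4 of the main 5 with median scaling, no background correction, an offset of 50, the deposited table and chip 1 alone. In EpiSC against EsrrbNeg it was 5 of the main 7 with median scaling and on chip 2 alone, and 6 with no background correction and in the deposited table, and in EpiSC against EsrrbHi it was 6 on chip 2 alone. On chip 2 alone each ESC group has 1 array, so the spread comes only from the EpiSC arrays. With 1 array left out the counts were 1 to 1, 3 to 4, 4 to 5, 7 to 7 and 7 to 7 in the 5 comparisons. With the replicate block, over all arrays or the ESC arrays only, no call of the 7 genes changed, and Dppa4 in EsrrbNeg against EsrrbHi stayed at -0.4.

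Over all features, 131, 1319, 2010, 2332 and 3707 were called in the 5 comparisons. With median scaling 0 and 379 were called in the first and second and 510 in EpiSC against EsrrbNeg. The deposited log2 table gave 32, 425, 725, 857 and 1647, no background correction 31, 431, 745, 836 and 1679, and an offset of 50 gave 59, 693, 1117, 1262 and 2339. The share called lower was 51.9% in EsrrbNeg against EsrrbMed and 62.5%, 63.3% and 62.6% with median scaling, no background correction and the deposited table. With median scaling it went from 42.6% to 24.5% and from 44.6% to 28.3% in EpiSC against EsrrbNeg and EsrrbHi, where the median of all features was 0.18 and 0.2. EpiSC against EsrrbHi for Tcl1 was -5.27, and -3.51 without background correction and -3.49 in the deposited table.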
